A study of Mus musculus with 18 samples.

Results

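The endocannabinoid receptors and enzymes described here are 7 genes of the 52093 symbols in the expression files: the receptor genes Cnr1 and Cnr2, and the enzyme genes Napepld, Dagla, Daglb, Faah and Abhd6. They were chosen by symbol, and each has 1 row in the files. RNA-seq was carried out on 18 libraries of wild-type male C57BL/6 mice, aged 16 weeks, that for 12 weeks had consumed a HFD, a diet high in fat. The libraries comprised 6 of adipocytes from inguinal white fat (iWAT), 6 of adipocytes from epididymal white fat (eWAT) and 6 of brown fat (BAT). The substrain is given in different ways, as C57BL/6 or C57BL/6J in the labels and as C57BL/6NTac in a note of the study. All 3 groups shared genotype, diet and sex, and a treatment field of the labels that names regular chow for every sample goes against their titles and the study's methods. The white adipocytes were the floating cells left after collagenase digestion, whereas BAT was used as whole tissue. Preparation and tissue therefore cannot be told apart in comparisons with BAT. Below, iWAT and eWAT stand for the adipocytes of these depots.

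Endocannabinoids are lipid messengers made on demand from membrane phospholipids. NAPE-PLD, the product of Napepld, releases anandamide, and the diacylglycerol lipases encoded by Dagla and Daglb make 2-arachidonoylglycerol (2-AG). Both messengers act on the CB1 receptor (Cnr1) and the CB2 receptor (Cnr2), which couple to Gi and Go proteins and so lower cAMP. Fatty acid amide hydrolase (Faah) breaks down anandamide, while monoacylglycerol lipase (Mgll) and ABHD6 (Abhd6) break down 2-AG. In fat, CB1 is known for its part in lipid storage, and CB2 is best known from cells of the immune system. Monoacylglycerol lipase also cleaves monoacylglycerols in the last step of fat breakdown in adipocytes.

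Between 24655056 and 42518483 reads fell on the rows of a library. The brown fat marker Ucp1, which encodes the uncoupling protein of brown adipocytes, was at 1858 ± 237 RPKM (reads scaled to the length of the row and the total of the library, mean ± SD, n = 6 mice) in BAT, 2.26 ± 0.592 RPKM in iWAT and 0.261 ± 0.0844 RPKM in eWAT. The adiponectin gene Adipoq, a marker of adipocytes, was at 1127 ± 166, 386.9 ± 178.1 and 221.3 ± 29.5 RPKM in iWAT, eWAT and BAT. The white adipocyte libraries also held RNA of other cells. The summed RPKM of 5 macrophage markers (Cd68, Emr1, Csf1r, Itgam and Lyz2) ranged from 437 to 857 in iWAT, from 2460 to 4000 in eWAT and from 23.7 to 47.2 in BAT. All 5 were higher in eWAT than in iWAT and lower in BAT than in either. eWAT of mice 1 and 3 stood apart from the other 4 in Adipoq. Differences between iWAT and eWAT are given with and without them for the tested receptors and enzymes, Mgll and Cnrip1, and for some ratios. Differences of all other genes are given only with them. Some of those genes, such as Trpv1 and Gnai1, were also lowest within eWAT in mice 1 and 3, so the sizes of their differences may rest on these mice. Lanes 1 and 2 held the white adipocytes and lanes 3 and 4 held BAT, and in BAT the lane cannot be told apart from the tissue.

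The sequence upstream of each receptor gene is shown because Cnr1 and Cnr2 had different tissue orders (below, Cnr1 was highest in iWAT and Cnr2 in eWAT). In mm9, the build of the files, the Cnr1 row spans chr4:34011025-34035806 on the plus strand and the Cnr2 row spans chr4:135451309-135476134 on the plus strand. The 250 bases before the most upstream start in RefSeq are given 5′ to 3′ on the GRCm38.p6 build, at chr4:33924014-33924263 for Cnr1 and chr4:135894939-135895188 for Cnr2. Capitals mark matches, on either strand, to AGGTCA, the core of nuclear receptor sites, and to the GC box GGGCGG. The site type GAGGAAGT of the myeloid factor PU.1 and the TATA box TATAAA were searched on either strand as well. None of the 4 motifs overlaps another in these windows.
Cnr1: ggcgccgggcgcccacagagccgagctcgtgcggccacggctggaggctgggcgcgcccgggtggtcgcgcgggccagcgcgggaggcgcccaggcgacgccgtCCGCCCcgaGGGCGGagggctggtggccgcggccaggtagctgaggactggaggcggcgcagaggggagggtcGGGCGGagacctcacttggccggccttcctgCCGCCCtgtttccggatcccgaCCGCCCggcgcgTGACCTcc
Cnr2: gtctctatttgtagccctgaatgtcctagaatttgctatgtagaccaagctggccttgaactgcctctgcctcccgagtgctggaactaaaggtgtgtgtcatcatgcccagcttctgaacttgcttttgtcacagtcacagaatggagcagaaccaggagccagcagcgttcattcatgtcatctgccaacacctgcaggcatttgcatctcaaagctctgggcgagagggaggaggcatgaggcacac
The Cnr1 window was 79.2% G or C, above 98.4% of 32851 promoters of the same length, with 36 CpG dinucleotides, 5 GC boxes and 1 nuclear receptor core. The Cnr2 window was 51.6% G or C, near the median of 52.4% over all promoters. It had 3 CpG dinucleotides, against a median of 6, and held none of the 4 motifs. Of all promoters, 32.7% held a GC box, 14.0% a nuclear receptor core, 2.44% the PU.1 type site and 12.4% a TATA box. These are matches of letters, and binding was not measured. RefSeq promoters were matched for 6 of the 7 genes, all but Dagla.

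Cnr1, the CB1 receptor gene, was highest in iWAT and lowest in BAT. It was at 1.57 ± 0.318 RPKM in iWAT (lowest 1.19, median 1.57, highest 2.1), 0.736 ± 0.324 RPKM in eWAT (0.314, 0.864 and 1.02) and 0.0722 ± 0.0458 RPKM in BAT (0.0217, 0.0657 and 0.138). The 3 groups did not overlap. These values rest on 296 to 525 reads per library in iWAT, 75 to 272 in eWAT and 4 to 35 in BAT. Cnr1 was 2.16-fold higher in iWAT than in eWAT (log2 fold change 1.11, SE 0.29, adjusted p = 0.0038 by edgeR's quasi-likelihood test), 14.4-fold higher in iWAT than in BAT (3.85, SE 0.28, adjusted p = 6e-09) and 6.78-fold higher in eWAT than in BAT (2.76, SE 0.40, adjusted p = 1.1e-05). In bulk samples like these, fewer cells of a type and less RNA per cell cannot be told apart.

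The lowest Cnr1 values of eWAT came from mice 1 and 3, at 0.348 and 0.314 RPKM, against 0.788 to 1.02 RPKM in the other 4 mice. The same 2 libraries had the lowest Adipoq. Without them, the log2 difference between iWAT and eWAT was 0.74 (adjusted p = 0.0017 by edgeR), and that between eWAT and BAT was 3.13 (adjusted p = 1.5e-07).

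Cnr2, the CB2 receptor gene, was highest in eWAT. It was at 1.10 ± 0.291 RPKM in iWAT (lowest 0.787, median 1.14, highest 1.56), 2.65 ± 1.02 RPKM in eWAT (1.61, 2.35 and 3.99) and 0.179 ± 0.0474 RPKM in BAT (0.106, 0.192 and 0.236). The lowest eWAT library lay just above the highest iWAT library, so the groups did not overlap. Reads per library were 86 to 194, 171 to 655 and 14 to 31. Cnr2 was 2.38-fold lower in iWAT than in eWAT (log2 fold change -1.25, SE 0.24, adjusted p = 0.00047 by edgeR), and 4.08-fold and 9.98-fold higher in iWAT and eWAT than in BAT (2.03, SE 0.22, adjusted p = 5.2e-07, and 3.32, SE 0.28, adjusted p = 2.9e-08).

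Within eWAT, the highest Cnr2 values were again those of mice 1 and 3 (3.99 and 3.75 RPKM), and the log2 difference between iWAT and eWAT was -0.89 without them (adjusted p = 0.0018 by edgeR). The 5 macrophage markers followed the same tissue order as Cnr2: Cd68 was at 140.0 ± 32.8 RPKM in iWAT, 567.4 ± 93.2 in eWAT and 3.11 ± 0.813 in BAT. The part of macrophage RNA in the Cnr2 differences was not tested. B cells also express Cnr2. Of their markers, Cd79a was at 0.283 ± 0.170, 0.0954 ± 0.0561 and 0.279 ± 0.153 RPKM in iWAT, eWAT and BAT, Cd79b at 0.618 ± 0.280, 0.851 ± 0.227 and 0.281 ± 0.0754 RPKM, and Ms4a1 at 0.128 ± 0.0713, 0.0378 ± 0.00757 and 0.0784 ± 0.0240 RPKM. In BAT the means of Cd79a and Cd79b lay above that of Cnr2, and the part of B cell RNA in the Cnr2 values was not tested.

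**Figure D1:**
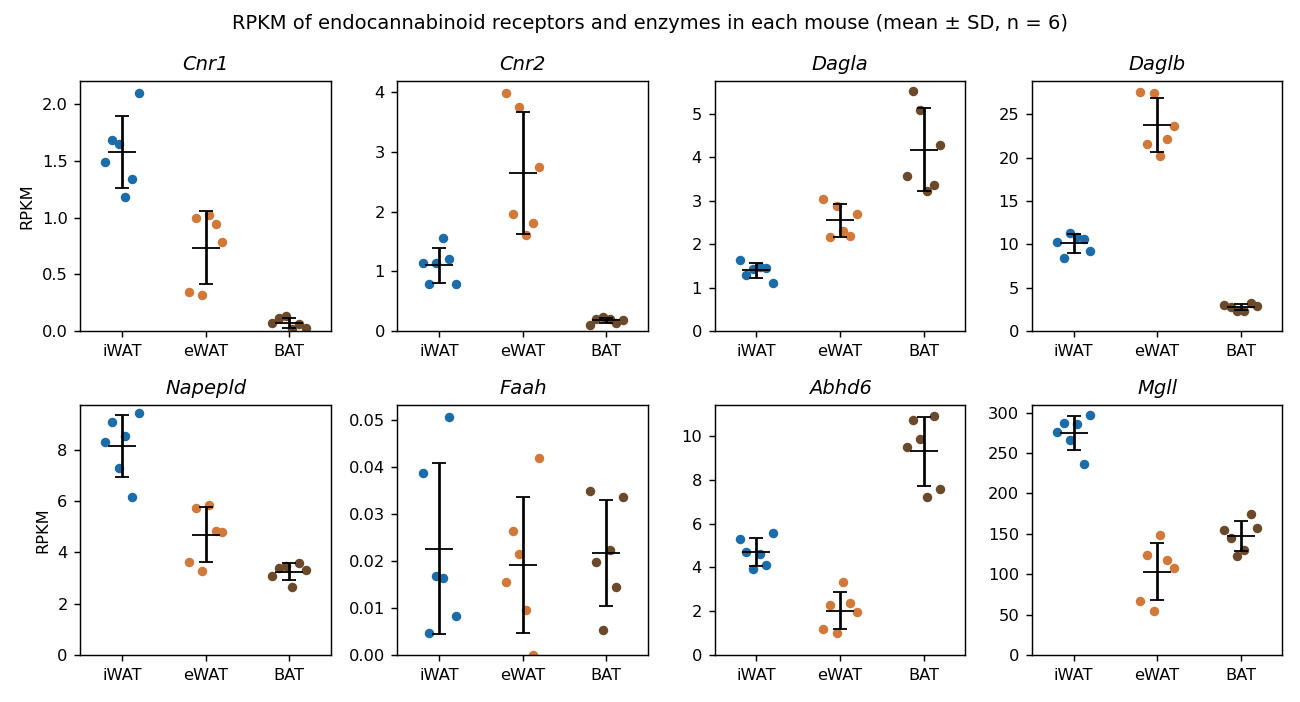
RPKM of each gene (vertical axes, linear, from 0) in each of 6 mice per tissue (points), with the mean and SD (bars). Cnr1 and Cnr2 were low in BAT, Dagla and Abhd6 were highest in BAT, and Faah stayed below 0.06 RPKM in all 18 libraries.

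The receptors were also compared within each library, as the ratio of their RPKM. Cnr1 had the higher RPKM in 5 of 6 iWAT libraries, and Cnr2 had the higher RPKM in 6 of 6 eWAT and 6 of 6 BAT libraries. Such ranks depend on row length, and ranks by transcript length were not tested. The Cnr1 row counts 8030 bases, against 5807 in its longest coding transcript in GENCODE vM1, and the Cnr2 row 3994 against 3867. The ratio of Cnr1 to Cnr2 was 0.759 to 2.66 in iWAT (median 1.38), 0.0838 to 0.634 in eWAT (median 0.399) and 0.105 to 0.675 in BAT (median 0.492). The mean log2 ratio was 2.24 higher in iWAT than in eWAT (exact permutation p = 0.00216, the smallest that 6 against 6 allows, adjusted p = 0.00371) and 1.21 higher in iWAT than in BAT (exact permutation p = 0.00433, adjusted p = 0.00649). Between eWAT and BAT it differed by -1.02, which did not pass the test (exact permutation p = 0.0736, adjusted p = 0.0736), and the BAT ratio rests on few reads of either gene. These tests added 0.1 RPKM to each value before the ratio was taken, which is more than the mean of Cnr1 in BAT, and the sizes against BAT depend on it. With nothing added, the differences were 2.44, 2.08 and -0.36 for iWAT over eWAT, iWAT over BAT and eWAT over BAT (adjusted p = 0.00278, 0.00278 and 0.61 by the exact permutation test), and with 1 RPKM added the last one passed (-0.91, adjusted p = 0.0026).

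Mice 1 and 3 also had the lowest ratios of Cnr1 to Cnr2 in eWAT, 0.0873 and 0.0838, against 0.287 to 0.634 in the other 4. Without them, the mean log2 ratio was 1.51 higher in iWAT than in eWAT (exact permutation p = 0.00952, adjusted p = 0.0127). The difference between eWAT and BAT was then -0.30 (exact permutation p = 0.329, adjusted p = 0.329), so most of its size rested on these 2 libraries.

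Napepld, whose product makes anandamide, was highest in iWAT. It was at 8.14 ± 1.21 RPKM in iWAT (lowest 6.16, median 8.44, highest 9.43), 4.69 ± 1.07 RPKM in eWAT (3.26, 4.81 and 5.87) and 3.25 ± 0.340 RPKM in BAT (2.65, 3.35 and 3.59). The iWAT libraries lay above all others, whereas eWAT and BAT libraries overlapped. Napepld was 1.75-fold higher in iWAT than in eWAT (log2 fold change 0.81, SE 0.16, adjusted p = 0.00062 by edgeR) and 1.65-fold higher in iWAT than in BAT (0.72, SE 0.11, adjusted p = 1.9e-05). The log2 difference between eWAT and BAT was -0.06 (95% interval -0.35 to 0.23, adjusted p = 0.66 by edgeR). This last comparison turned with the scaling: without TMM, which rescales libraries by the bulk of their genes, it was 0.84 (adjusted p = 2.6e-05).

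Dagla was the only one of the 6 tested genes with the order BAT, eWAT, iWAT from highest to lowest. Its product is the diacylglycerol lipase best known from neurons. It was at 4.17 ± 0.959 RPKM in BAT (lowest 3.23, median 3.92, highest 5.53), 2.55 ± 0.383 RPKM in eWAT (2.16, 2.5 and 3.05) and 1.40 ± 0.178 RPKM in iWAT (1.10, 1.44 and 1.63), with no overlap between groups. Dagla was 1.82-fold lower in iWAT than in eWAT (log2 fold change -0.86, SE 0.10, adjusted p = 1.1e-05 by edgeR), 4.56-fold lower in iWAT than in BAT (-2.19, SE 0.13, adjusted p = 5.5e-10) and 2.46-fold lower in eWAT than in BAT (-1.30, SE 0.14, adjusted p = 4.4e-07). Without TMM, the last value shrank to -0.39 and its call held (adjusted p = 0.025 by edgeR).

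Daglb, the other diacylglycerol lipase gene and the one best known from macrophages and microglia, was highest in eWAT. It was at 23.8 ± 3.12 RPKM in eWAT (lowest 20.2, median 22.9, highest 27.6), 10.1 ± 1.09 RPKM in iWAT (8.39, 10.5 and 11.3) and 2.78 ± 0.374 RPKM in BAT (2.31, 2.87 and 3.26). The groups lay far apart. Daglb was 2.33-fold lower in iWAT than in eWAT (log2 fold change -1.22, SE 0.09, adjusted p = 3.5e-07 by edgeR), and 2.39-fold and 5.69-fold higher in iWAT and eWAT than in BAT (1.26, SE 0.08, adjusted p = 1.6e-09, and 2.51, SE 0.10, adjusted p = 5.4e-12). Its order was the same as that of the macrophage markers, whose part in it was not tested.

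Counts of Daglb are uncertain, since its row (chr5:144225361-144266810, plus strand, mm9) shares 2309 bases with the row of Rac1 on the other strand and the counting is not stated to use strand. Rac1, a small GTPase gene, was at 53.8 ± 3.62, 70.0 ± 5.20 and 23.2 ± 2.29 RPKM in iWAT, eWAT and BAT, the same order as Daglb. The Napepld row (chr5:21167880-21207214, minus strand) likewise shares 633 bases with that of Armc10, which was at 3.65 ± 0.314, 4.65 ± 0.422 and 1.53 ± 0.239 RPKM, an order unlike that of Napepld. The other members' rows share no bases with a row of at least 1 RPKM on average. They lie at chr19:10319755-10379367 (Dagla, minus strand), chr14:8835416-8889237 (Abhd6, plus strand) and chr4:115639750-115690531 (Faah, minus strand). Between 96.4% and 100% of each of the 7 rows lay within the protein-coding gene of that name in GENCODE vM1.

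By RPKM, the diacylglycerol lipase genes had opposite ranks in white and brown fat. Daglb exceeded Dagla in RPKM by 6.30 to 8.39 times in iWAT (median 7.37) and by 8.74 to 10.2 times in eWAT (median 9.28). In BAT, Dagla had the higher RPKM in 6 of 6 libraries, with a ratio of Daglb to Dagla of 0.455 to 0.97 (median 0.709). These ranks depend on the row lengths. The Daglb row counts 9792 bases, against 3214 in its longest coding transcript in GENCODE vM1, and the Dagla row 5747 against 5634. Which gene had more transcripts in BAT thus cannot be told from RPKM. Row length is equal in all libraries, so it cancels between tissues when nothing is added to the RPKM. With nothing added, the mean log2 ratio differed by 3.43 for iWAT over BAT, 3.79 for eWAT over BAT and -0.36 for iWAT over eWAT (exact permutation p = 0.00216 for each, adjusted p = 0.00278). With 0.1 RPKM added, the mean log2 ratio was 3.32 higher in iWAT and 3.72 higher in eWAT than in BAT, and 0.40 lower in iWAT than in eWAT (exact permutation p = 0.00216 for each, adjusted p = 0.00371).

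**Figure D2:**
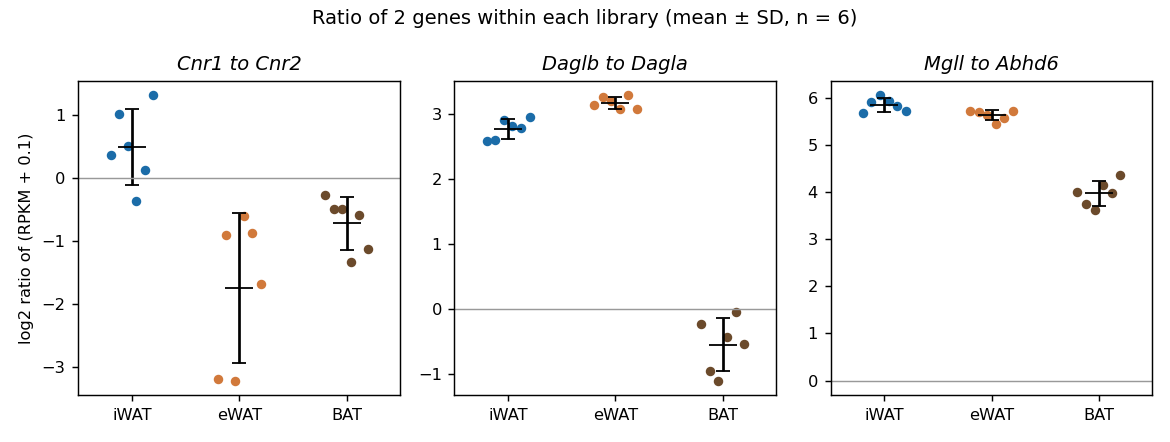
Log2 ratio of the RPKM of 2 genes (vertical axes, pseudocount 0.1) in each of 6 libraries per tissue (points), with the mean and SD (bars). The grey line marks equal RPKM. The ratio of Daglb to Dagla lay above the line in all 12 white adipocyte libraries and below it in all 6 BAT libraries.

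Faah was at the edge of detection in every tissue. It had 1 to 12 reads per library in iWAT (median 4), 0 to 11 in eWAT (median 5) and 1 to 9 in BAT (median 5), or 0.0226 ± 0.0182, 0.0191 ± 0.0144 and 0.0217 ± 0.0113 RPKM. The groups overlapped throughout. A library with 0 reads, such as eWAT of mouse 5, allows up to 3 reads, which is 0.00929 to 0.0144 RPKM in eWAT. Faah was below the minimum mean count of 10 in all 3 comparisons. In a fit without that minimum, its log2 differences were 0.23 (SE 0.58), -0.47 (SE 0.48) and -0.65 (SE 0.52) for iWAT over eWAT, iWAT over BAT and eWAT over BAT, with adjusted p of 0.78, 0.42 and 0.30 by edgeR. A difference between tissues was thus not detectable at this depth. The median ratio of Faah to Napepld was 0.00211 in iWAT, 0.00443 in eWAT and 0.00711 in BAT. With Faah this low, the tested log2 ratio rests on Napepld and the pseudocount, and it passed in all 3 comparisons (exact permutation p = 0.013, 0.00216 and 0.026, adjusted p = 0.0173, 0.00371 and 0.0283). Between the white depots it did not pass as paired differences within mice (exact permutation p = 0.0625), and with a pseudocount of 0.01 only iWAT over BAT passed. Without eWAT mice 1 and 3 it was -0.56 between the white depots, which did not pass (adjusted p = 0.0571 by the exact permutation test).

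Abhd6, a hydrolase of 2-AG, was highest in BAT and lowest in eWAT. It was at 9.31 ± 1.58 RPKM in BAT (lowest 7.21, median 9.68, highest 10.9), 4.70 ± 0.657 RPKM in iWAT (3.91, 4.66 and 5.59) and 2.02 ± 0.858 RPKM in eWAT (1.01, 2.13 and 3.33). The groups did not overlap. Abhd6 was 2.35-fold higher in iWAT than in eWAT (log2 fold change 1.23, SE 0.25, adjusted p = 0.00061 by edgeR), and 3.0-fold and 6.95-fold lower in iWAT and eWAT than in BAT (-1.59, SE 0.11, adjusted p = 2.9e-09, and -2.80, SE 0.23, adjusted p = 1.8e-08). Its lowest eWAT values, 1.17 and 1.01 RPKM, were those of mice 1 and 3. Without them, the log2 difference between iWAT and eWAT was 0.92 (adjusted p = 0.00037 by edgeR).

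Mgll, the main hydrolase of 2-AG and no member of the 7, was far more abundant than Abhd6 in all tissues. It was at 274.7 ± 21.5 RPKM in iWAT, 103.2 ± 35.7 RPKM in eWAT and 147.1 ± 18.8 RPKM in BAT, and exceeded Abhd6 by 52.0 to 67.9, 44.5 to 57.2 and 12.4 to 20.6 times within a library. The mean log2 ratio of Mgll to Abhd6 was 1.87 and 1.65 higher in iWAT and eWAT than in BAT (exact permutation p = 0.00216 for each, adjusted p = 0.00371) and 0.22 higher in iWAT than in eWAT (exact permutation p = 0.0195, adjusted p = 0.0234). The last difference did not pass as paired differences within mice (exact permutation p = 0.125) or with nothing added to the RPKM (0.17, adjusted p = 0.0682 by the exact permutation test). Mgll itself was 2.67-fold higher in iWAT than in eWAT (log2 fold change 1.42, SE 0.22, adjusted p = 8.1e-05 by edgeR) and 2.14-fold lower in eWAT than in BAT (-1.10, SE 0.20, adjusted p = 0.00013), a call that ended without TMM (-0.19, adjusted p = 0.38). Without eWAT mice 1 and 3 these were 1.14 and -0.81 (adjusted p = 8.6e-06 and 1.2e-05 by edgeR). Its log2 difference of 0.30 (SE 0.10) between iWAT and BAT passed the test (adjusted p = 0.015 by edgeR) but not with the mouse as a block (0.35, adjusted p = 0.093) or in 1 fit over all 18 samples (adjusted p = 0.15).

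Compared by RPKM, that is per row length, the order of the 7 genes differed between tissues. Rows exceed the longest coding transcript in GENCODE vM1 by unlike amounts. The lengths are 9792 against 3214 bases for Daglb, 7847 against 3827 for Faah, 8030 against 5807 for Cnr1 and 4981 against 3954 for Napepld. The order and overlaps of genes within a tissue depend on these lengths, and an order by transcript length was not tested. In iWAT, Daglb and Napepld were highest and overlapped each other, Abhd6 followed apart from its neighbours, and Cnr1, Dagla and Cnr2 formed an overlapping run between 0.787 and 2.1 RPKM. In eWAT, Daglb stood alone, and Napepld, Cnr2, Dagla, Abhd6 and Cnr1 followed, each overlapping the next. In BAT, Abhd6 stood alone, Dagla, Napepld and Daglb each overlapped the next, and Cnr2, Cnr1 and Faah lay below 0.24 RPKM, each overlapping the next.

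Of the 7 genes, 6 had enough reads to be tested. Between iWAT and eWAT, all 6 passed the test, 3 higher in iWAT (Cnr1, Napepld and Abhd6) and 3 higher in eWAT (Cnr2, Dagla and Daglb), where 68.6% of all genes passed, 34.1% and 34.5% in each direction. Between iWAT and BAT, all 6 passed, 4 higher in iWAT (Cnr1, Cnr2, Napepld and Daglb) and 2 higher in BAT (Dagla and Abhd6), where 75.3% of all genes passed (38.1% and 37.2%). Between eWAT and BAT, 5 passed, 3 higher in eWAT (Cnr1, Cnr2 and Daglb) and 2 higher in BAT (Dagla and Abhd6), where 82.5% of all genes passed (41.1% and 41.4%). RPKM did not overlap between the groups for 6, 6 and 5 of the 6, against 44%, 65.3% and 68.4% of all genes. With shares this high among all genes, the number of calls is no result about these 6 genes, and their sizes and directions are what is described. The median log2 difference over the 6 was -0.03, 0.99 and 1.22, beside 0.00, 0.01 and -0.02 over all genes tested. The 3 comparisons share samples. Comparisons with BAT moved with the scaling: without TMM the median of all genes was 0.87 for iWAT over BAT and 0.89 for eWAT over BAT, and the log2 differences of Cnr1 were then 4.68 and 3.64, of Cnr2 2.88 and 4.22, of Dagla -1.33 and -0.39, of Daglb 2.11 and 3.42, of Napepld 1.57 and 0.84 and of Abhd6 -0.74 and -1.90. Only Napepld between eWAT and BAT changed its direction and its call.

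**Figure D3:**
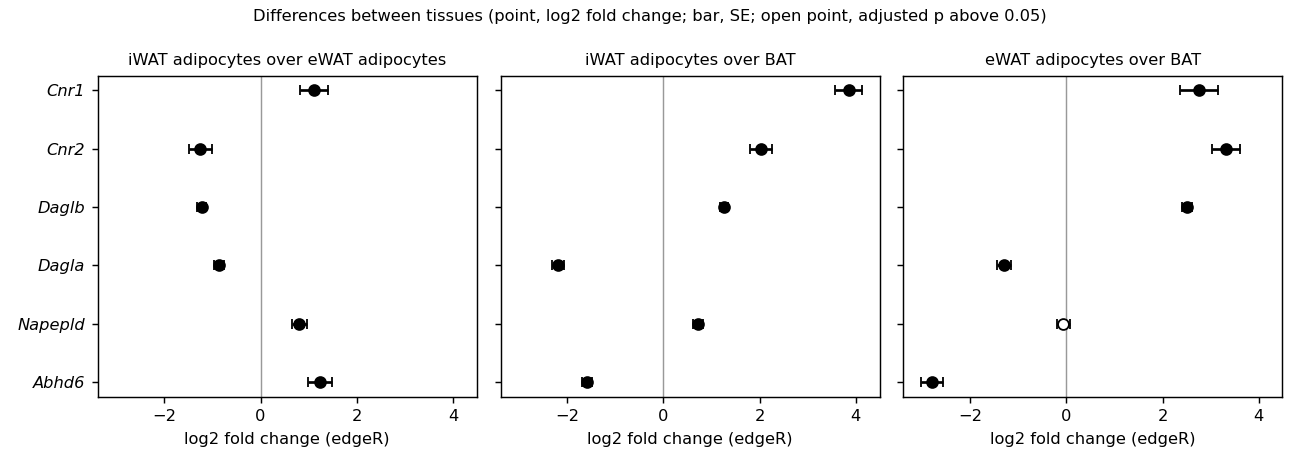
Log2 fold change (horizontal axes, edgeR, TMM scaling) with its SE (bars) of 6 genes in 3 comparisons of 6 against 6 libraries; the open point did not pass the test. Cnr1 and Cnr2 lay on opposite sides of 0 between the white depots and on the same side against BAT.

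Among the white adipocytes, both lanes held both depots, with 2 iWAT and 4 eWAT libraries in lane 1 and 4 iWAT and 2 eWAT libraries in lane 2. The log2 ratio of mean RPKM, iWAT over eWAT, was 0.94 in lane 1 and 1.47 in lane 2 for Cnr1, and -1.0 and -1.63 for Cnr2. It was -0.64 and -1.11 for Dagla, -1.08 and -1.38 for Daglb, 0.66 and 0.98 for Napepld, and 1.03 and 1.60 for Abhd6. Each gene had 1 direction in both lanes.

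Within eWAT, several members and markers differed together between mice. Mouse 1 and mouse 3 had Adipoq 0.79 and 1.20 below the group mean on the log2 RPKM scale, and in the same libraries Cnr1 was 0.92 and 1.07 below, Abhd6 0.68 and 0.88 below, Napepld 0.34 and 0.49 below and Mgll 0.54 and 0.84 below. Cnr2 was 0.68 and 0.59 above the mean in these 2 mice, Dagla 0.27 and 0.19 above, Daglb 0.23 and 0.22 above and Cd68 0.28 and 0.28 above. Thus the genes higher in iWAT than in eWAT were lowest, and the genes higher in eWAT were highest, in the libraries with least Adipoq. The summed RPKM of 4 adipocyte markers (Adipoq, Plin1, Lep and Cidec) ranged from 517 to 1810 in eWAT, from 2610 to 3840 in iWAT and from 629 to 824 in BAT. The part of adipocyte content in the differences between the depots was not tested. Without these 2 mice, all 6 genes still passed the test between iWAT and eWAT, with log2 differences of -0.75 for Dagla, -1.12 for Daglb and 0.61 for Napepld (adjusted p = 4.9e-05, 8.2e-07 and 0.0017 by edgeR) beside those given above.

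**Figure D4:**
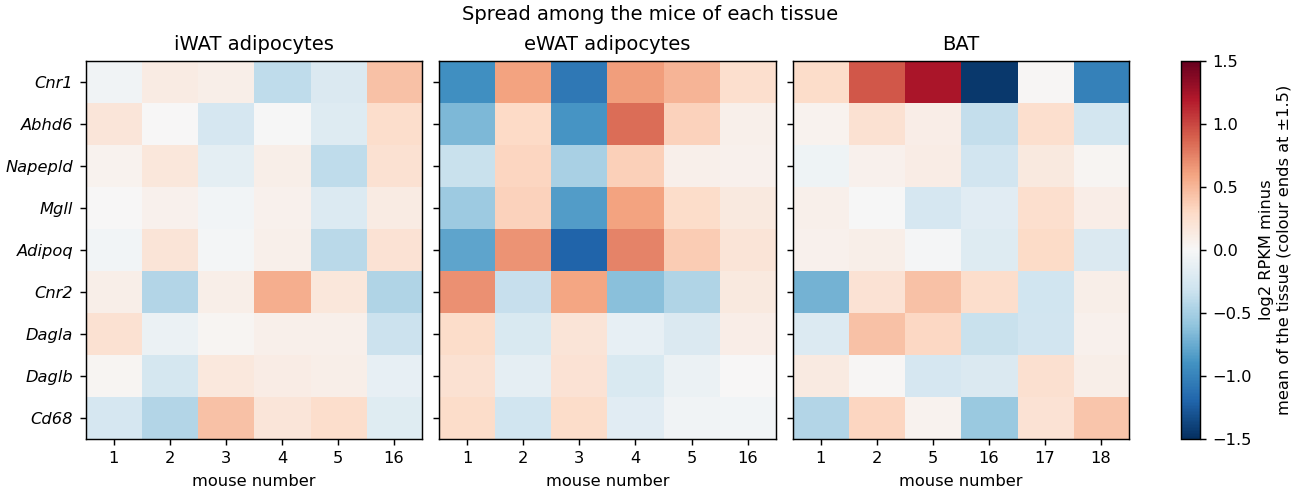
Log2 RPKM of a gene in a library minus its mean over the 6 libraries of the tissue (colour, ends at ±1.5), for 6 members, Mgll, Adipoq and Cd68 (rows) and each mouse (columns). In eWAT, mice 1 and 3 were low for Cnr1, Abhd6, Napepld, Mgll and Adipoq and high for Cnr2, Dagla, Daglb and Cd68.

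The wider pathway was described from 42 further genes, of which 36 were tested in each comparison. Of these, 17 were higher in iWAT and 15 in eWAT, 20 were higher in iWAT and 10 in BAT, and 17 were higher in eWAT and 14 in BAT. Of all genes tested, 34.1% and 34.5%, 38.1% and 37.2%, and 41.1% and 41.4% passed in these directions. The median log2 differences were 0.12, 0.43 and 0.06, against the medians near 0 over all genes given above. With background shares this high, the counts of calls below describe the lists and are no result about them.

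Among 17 other synthesis enzymes and their phospholipases, 6 of 16 tested were higher in iWAT and 8 in eWAT, 8 of 16 were higher in iWAT and 5 in BAT, and 6 of 15 were higher in eWAT and 5 in BAT, where 68.6%, 75.3% and 82.5% of all genes passed in either direction. Their median log2 differences were -0.21, 0.66 and -0.04. Inpp5d and Ptpn22, a lipid phosphatase and a protein phosphatase gene of blood cells linked to another route to anandamide, were at 11.9 ± 2.44 and 4.16 ± 0.655 RPKM in eWAT. They were at 3.04 ± 0.813 and 1.35 ± 0.309 RPKM in iWAT and at 0.509 ± 0.105 and 0.0629 ± 0.0182 RPKM in BAT. The phospholipase C gene Plcg2 and the lysophospholipase D gene Gdpd1 had the same order, at 7.86 ± 1.46 and 5.97 ± 0.973 RPKM in eWAT, 2.20 ± 0.548 and 1.56 ± 0.381 RPKM in iWAT and 0.250 ± 0.0541 and 0.221 ± 0.0816 RPKM in BAT. Inpp5d was 3.90-fold and Gdpd1 3.81-fold lower in iWAT than in eWAT (log2 fold change -1.96, SE 0.17, adjusted p = 9.8e-07, and -1.93, SE 0.15, adjusted p = 4.3e-07 by edgeR). Against BAT, Ptpn22 was 14.0-fold and 43.9-fold higher in iWAT and eWAT (adjusted p = 1.2e-10 and 3.9e-13 by edgeR), and Plcg2 5.71-fold and 20.7-fold higher (adjusted p = 4e-09 and 1.5e-12). This is again the order of the macrophage markers, whose part was not tested. Hrasls, a phospholipid acyltransferase gene, was highest in iWAT (0.828 ± 0.206 RPKM, against 0.295 ± 0.157 in eWAT and 0.0561 ± 0.0372 in BAT). The N-acyltransferase gene Pla2g4e, which makes precursors of anandamide, passed the test between iWAT and eWAT on 11 to 42 and 2 to 13 reads per library.

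Among the other degradation and oxidation enzymes, 7 of the 8 listed were in the files. Of those tested, 3 of 7 were higher in iWAT and 3 in eWAT, 5 of 6 were higher in iWAT and none in BAT, and 4 of 7 were higher in eWAT and 2 in BAT, beside the same 68.6%, 75.3% and 82.5% of all genes. The median log2 differences were 0.12, 1.04 and 1.55. Abhd12, a lipase gene known for lysophosphatidylserine breakdown and a minor share of 2-AG hydrolysis, was at 90.9 ± 12.6 RPKM in eWAT, 39.0 ± 3.28 RPKM in iWAT and 7.72 ± 1.19 RPKM in BAT. All 3 of its differences passed (log2 fold change -1.21, 1.73 and 2.97, adjusted p = 4.1e-07, 6.5e-11 and 1.7e-12 by edgeR). Naaa, an acid amidase gene for N-acylethanolamines, was at 10.1 ± 0.905 RPKM in iWAT, 9.38 ± 0.782 RPKM in eWAT and 2.13 ± 0.325 RPKM in BAT. Its log2 difference between the white depots was 0.12 (adjusted p = 0.19 by edgeR), and it was 3.13-fold and 2.93-fold higher in iWAT and eWAT than in BAT (adjusted p = 6.4e-10 and 3.6e-10). Naaa was thus far above Faah, the other amidase gene, in all 3 tissues. Ptgs2 (cyclooxygenase 2) was at 11.5 ± 3.66 RPKM in eWAT and 4.15 ± 1.62 RPKM in iWAT, with 0 to 6 reads per library in BAT. Abhd12 and Ptgs2 both had the order of the macrophage markers, whose part in them was not tested. The lipoxygenase gene Alox15 had 8 to 45 reads in eWAT, 0 to 2 in iWAT and 0 to 3 in BAT, and Alox12 was 2.96-fold higher in iWAT than in eWAT (adjusted p = 0.0046 by edgeR).

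Of 6 other receptors for endocannabinoids and related lipids, 3 had enough reads. All 3 were higher in iWAT than in eWAT, where 34.1% of all genes were, and Ppara and Pparg were lower and Trpv1 higher in both white depots than in BAT. The nuclear receptor gene Ppara was at 42.7 ± 8.82 RPKM in BAT, 1.14 ± 0.177 RPKM in iWAT and 0.399 ± 0.168 RPKM in eWAT (log2 fold change 1.52, -5.83 and -7.33, adjusted p = 0.00031, 2.6e-13 and 8.3e-12 by edgeR). Pparg, the master regulator of adipocyte formation, was at 89.8 ± 5.93, 41.5 ± 7.90 and 86.2 ± 10.4 RPKM in iWAT, eWAT and BAT. It was 2.18-fold higher in iWAT than in eWAT (log2 fold change 1.12, SE 0.13, adjusted p = 6.6e-06 by edgeR) and 3.14-fold lower in eWAT than in BAT (-1.65, SE 0.13, adjusted p = 1.4e-08). Its difference of -0.55 between iWAT and BAT (adjusted p = 7.7e-05) turned to 0.31 without TMM (adjusted p = 0.0074 by edgeR). The capsaicin receptor gene Trpv1, which anandamide also activates, was at 1.09 ± 0.194, 0.382 ± 0.171 and 0.141 ± 0.0316 RPKM. It was 2.88-fold higher in iWAT than in eWAT and 5.11-fold higher than in BAT (adjusted p = 0.00027 and 2.3e-08 by edgeR), while its log2 difference of 0.85 between eWAT and BAT (adjusted p = 0.021) did not pass with the mouse as a block (0.82, adjusted p = 0.065). Without eWAT mouse 4 or BAT mouse 2 it was 0.70 or 0.73 (adjusted p = 0.05 and 0.06 by edgeR), which did not pass. Gpr55 had 0 to 5 reads per library and Gpr18 had 1 to 16. Gpr119 had 0 reads in all 18 libraries, which allows up to 3 in each.

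Among 6 binding and carrier proteins, 2 of 5 tested were higher in iWAT and 2 in eWAT, 3 of 6 were higher in iWAT and 2 in BAT, and 3 of 6 were higher in eWAT and 3 in BAT, again beside 68.6%, 75.3% and 82.5% of all genes in either direction. The median log2 differences were -0.11, 0.42 and 0.04. Cnrip1, whose product binds the tail of CB1, was at 0.711 ± 0.194 RPKM in iWAT, 1.05 ± 0.230 RPKM in eWAT and 0.350 ± 0.0766 RPKM in BAT. Cnrip1 thus had an order unlike that of Cnr1 and like that of the macrophage markers, whose part was not tested. It was 1.48-fold lower in iWAT than in eWAT (adjusted p = 0.015 by edgeR, 0.068 without eWAT mice 1 and 3) and 1.99-fold higher in eWAT than in BAT (adjusted p = 7.8e-05), and its difference of 0.40 between iWAT and BAT did not pass (adjusted p = 0.054 by edgeR), but passed without iWAT mouse 3 or 16 or BAT mouse 18 (0.44, 0.47 and 0.46, adjusted p = 0.041, 0.018 and 0.039) and without TMM (1.25, adjusted p = 2.5e-05). Fabp4, the adipocyte fatty acid binding protein gene, was at 10490 ± 1270, 4050 ± 1542 and 5087 ± 452.2 RPKM, and 2.60-fold higher in iWAT than in eWAT (adjusted p = 0.00027 by edgeR). The heart-type gene Fabp3 was nearly confined to BAT in these libraries, at 190.3 ± 49.9 RPKM, against 3 to 17 reads per library in white adipocytes. Fabp7, the brain-type gene, was 4.92-fold lower in iWAT than in eWAT (adjusted p = 6.9e-06 by edgeR), and Fabp5 was 3.30-fold and 3.62-fold higher in iWAT and eWAT than in BAT (adjusted p = 3.5e-08 and 4.4e-08). Scp2, a sterol carrier gene, was 2.06-fold higher in iWAT than in eWAT (adjusted p = 0.00025 by edgeR).

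The G protein genes through which the CB receptors act were all measured. Of 5 Gi and Go alpha subunits, 3 were higher in iWAT and 2 in eWAT, 3 were higher in iWAT and 1 in BAT, and 3 were higher in eWAT and 2 in BAT. Of all genes, 68.6%, 75.3% and 82.5% passed in either direction. The median log2 differences were 1.13, 1.17 and 1.52. Gnai1 was at 80.3 ± 12.9, 37.0 ± 16.7 and 8.58 ± 1.66 RPKM in iWAT, eWAT and BAT, the same order as Cnr1. Gnai2 was at 94.7 ± 15.9, 139.2 ± 15.1 and 26.5 ± 3.69 RPKM and Gnai3 at 33.0 ± 4.51, 42.8 ± 2.77 and 9.64 ± 1.28 RPKM, the same order as Cnr2. The macrophage markers had this order too, and their part in Gnai2 and Gnai3 was not tested. Gnao1, which encodes the Go alpha subunit, was at 3.09 ± 0.601, 0.943 ± 0.364 and 5.81 ± 0.644 RPKM, the same order as Abhd6. Gnai1 was 2.18-fold, Gnao1 3.30-fold and Gnaz 2.70-fold higher in iWAT than in eWAT (adjusted p = 0.0039, 5.7e-05 and 0.00042 by edgeR).

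**Figure D5:**
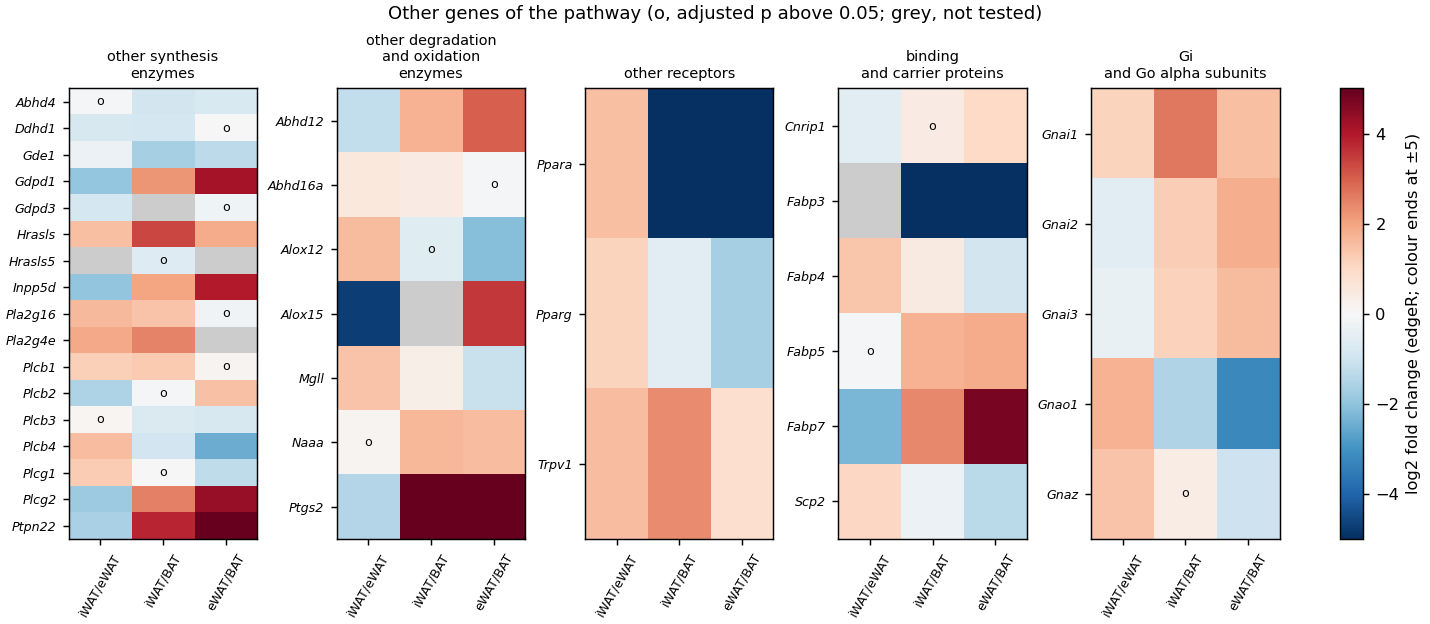
Log2 fold change (colour, edgeR, ends at ±5) of the tested genes of 5 pathway lists (rows) in 3 comparisons (columns, red for higher in the tissue named before the slash); circles mark values that did not pass the test and grey marks genes not tested. Ppara and Fabp3 were lower, and Ptgs2 higher, in white adipocytes than in BAT.

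Rows of Inpp5d, Mgll, Abhd12, Ppara, Cnrip1, Fabp3, Fabp4 and Fabp5 share bases with rows of other symbols at 1 RPKM or more on average (for Cnrip1, the leukocyte gene Plek). Rows of Gpr18 and of the markers Adipoq, Lep and Csf1r do so too (for Lep, 13658 bases with Rbm28). Fabp4 and Fabp5 may also have near-identical copies, which was not tested. The counts of all these genes are uncertain.

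The genes whose profiles over the 18 libraries were most like each member were found by Pearson's r on log2 TMM-scaled RPKM among 19941 genes. As the libraries form 3 tissues, r mainly describes the order of the tissues. For Cnr1 they were Igfals (r = 0.988), Serpina3c (0.987) and Casp12 (0.985), and Igfals was at 21.5 ± 3.64, 7.39 ± 3.6 and 0.406 ± 0.219 RPKM in iWAT, eWAT and BAT. For Cnr2 they were Slc39a10 (0.975), the gene listed as ENSMUSG00000083046 (0.973) and Stard3nl (0.973), and Slc39a10 was at 6.96 ± 1.09, 14.6 ± 2.45 and 1.79 ± 0.182 RPKM. Dagla was most like Ap1m1, Slc26a6 and Ankrd52 (0.989 each), and Napepld most like Abcd2 (0.981), Gnb5 (0.98) and Fah (0.971). Daglb was most like Arpc2 (0.996), Unc13a (0.995) and Actr2 (0.995), of which Arpc2 and Actr2 encode subunits of the Arp2/3 actin complex. Arpc2 was at 27.5 ± 3.54, 61.7 ± 9.02 and 8.71 ± 0.944 RPKM. Abhd6 was most like Lynx1 (0.995), Nol3 (0.993) and Arhgap24 (0.993), and Lynx1 was at 4.01 ± 0.775, 1.85 ± 0.783 and 9.87 ± 1.52 RPKM. Faah was below the filter for this search.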

How the data were processed

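The authors sequenced total RNA from 18 mouse samples as NEBNext Ultra libraries on an Illumina HiSeq. Per the labels, reads were trimmed with cutadapt 1.16 and mapped with HISAT2 2.1.0 to mm9. The counting program, the annotation and the use of strand are not given in the sources used here. The deposited files hold a whole-number read count for each of 53445 transcript rows. They also hold RPKM, which the authors derived from the count, the row length and a library total. Another deposited column of normalized expression was not used.

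Samples were grouped by tissue from the labels. Each of 52093 symbols was represented by its row of highest mean RPKM. Counts were tested with edgeR 4.0.16 in R 4.3.3 (quasi-likelihood test, TMM scaling, two-sided, each comparison on its own 12 samples). A mean count of 10 or more was required, and a gene passed at a Benjamini-Hochberg adjusted p of 0.05 over the whole table. The SE was derived from the F statistic and 95% intervals from it with 10 residual degrees of freedom, so they are approximate. The TMM factors averaged 1.21 (iWAT), 1.27 (eWAT) and 0.658 (BAT). Fold changes are therefore on another scale than ratios of RPKM. The script was tested on simulated data. Ratios of 2 genes within a library, on log2(RPKM + 0.1), were compared by two-sided exact permutation tests, adjusted over 12 tests. A count of 0 was taken to allow up to 3 reads, for counting error only.

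A number in the sample titles was read as the mouse, which pairs samples (6 pairs between the white depots, 4 pairs with BAT). The correlation of deviations from the tissue means averaged -0.01 over the same-numbered pairs of iWAT and eWAT adipocytes, -0.01 over those of iWAT adipocytes and BAT and 0.02 over those of eWAT adipocytes and BAT. The fit with the mouse as a block was an alternative. Other alternatives were DESeq2 1.42.0, limma 3.58.1 on log2 RPKM, no TMM scaling, no filter, 1 fit over 18 samples, summed rows, the lane as a covariate and each sample left out in turn. Ratios with no pseudocount, and members and ratios without eWAT mice 1 and 3, were added after the data were seen. Nothing in the labels says more of how samples were replicated than the mouse number.

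The members, gene lists and markers were chosen with earlier results of these data known. Named genes were the members, the 3 genes of each list past the threshold that changed most in a comparison, 8 genes fixed by name (Mgll, Abhd12, Naaa, Cnrip1, Gpr55, Ppara, Pparg and Inpp5d), and the 3 genes most correlated with each member. Rac1 and Armc10 are named because their rows overlap rows of members. Results of some marker genes are not reported here.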

Additional observations from a re-analysis of the deposited data

How the results depend on the processing

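The number of members past the threshold, and the number of all genes, stayed within 1.5 times the main count under every alternative run, in all 3 comparisons. Of 378 log2 fold changes of members under alternatives, 371 kept their direction and their side of the threshold. The other 7 all concern Napepld between eWAT adipocytes and BAT, whose value of -0.06 turned to 0.84 without TMM (adjusted p = 2.6e-05), 0.49 and 0.40 by limma with pseudocounts of 0.1 and 1 (adjusted p = 0.0052 and 0.0051), 0.037 with no filter (0.82), 0.13 without eWAT mice 1 and 3 (0.17, an alternative chosen after seeing the data), 0.0084 without eWAT adipocytes replicate 1 and 0.031 without eWAT adipocytes replicate 3. Leaving out 1 sample in turn, it ranged from -0.127 to 0.031. Pparg between iWAT adipocytes and BAT turned from -0.55 to 0.31 without TMM (0.0074) and to 0.065 and 0.064 by limma. Without TMM the median of all genes moved from 0.01 to 0.87 for iWAT adipocytes over BAT and from -0.02 to 0.89 for eWAT adipocytes over BAT, and calls split 13703 higher to 3054 lower and 12965 to 4061, in place of 7528 to 7336 and 8243 to 8318. By limma they split 12752 to 4402 and 11972 to 5740. With the mouse as a replicate block, 12836, 12555 and 15149 genes passed in the 3 comparisons in place of 13454, 14864 and 16561, and no member's call changed. Among named genes the block ended the call of Mgll between iWAT adipocytes and BAT and of Trpv1 between eWAT adipocytes and BAT. The log2 ratio of Cnr1 to Cnr2 between eWAT adipocytes and BAT passed with a pseudocount of 1 (-0.91, exact permutation test, adjusted p = 0.0026). That of Faah to Napepld no longer passed with 0.01 between iWAT and eWAT adipocytes (-0.66, adjusted p = 0.257 by the exact test) or between eWAT adipocytes and BAT (-0.71, adjusted p = 0.195), nor as paired differences between the white depots (replicate block, -0.76, exact p = 0.0625 with no adjustment) or without eWAT mice 1 and 3 (-0.56, adjusted p = 0.0571 by the exact test, chosen after seeing the data). That of Mgll to Abhd6 between the white depots did not pass with 0.01 (0.17, adjusted p = 0.0664), with no pseudocount (0.17, adjusted p = 0.0682, chosen after seeing the data) or as paired differences (0.22, exact p = 0.125 with no adjustment). With 4 shared mice, paired differences with BAT cannot go below 0.125. Low depth limits Faah in all tissues and Cnr1 and Cnr2 in BAT.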
